A study of Mus musculus with 2 samples.

Results

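The genes described here make, package, recapture, sense and break down dopamine. They are the 8 gene rows named Th, Ddc, Gch1, Slc18a2, Slc6a3, Drd2, Maoa and Maob, chosen by symbol from a table of 31252 genes measured in mouse ventral midbrain at 2 months of age. The table holds 2 RNA sequencing libraries, 1 labelled Ctrl (Slc6a3-Cre) and 1 labelled OE (Slc6a3-Cre; CAG-S-COUP-TFII). In both genotypes Cre is made from an IRES-Cre allele of Slc6a3 itself, which limits its activity mainly to dopaminergic (DA) neurons, and only OE mice carry the ROSA26 allele from which Cre releases COUP-TFII, an orphan nuclear receptor. The strain is labelled as incipient congenic C57BL/6. In the cross that the methods describe for Ctrl and OE littermates, pups also inherit a tdTomato reporter and a floxed Tfam allele, neither of which the labels mention. How many mice gave each library is not stated in the sources used here.

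Dopamine is built from tyrosine in 2 steps. Tyrosine hydroxylase (Th) makes L-DOPA with tetrahydrobiopterin as cofactor, and aromatic L-amino acid decarboxylase (Ddc) turns L-DOPA into dopamine. The vesicular transporter (Slc18a2) loads dopamine into vesicles, the plasma membrane transporter (Slc6a3) takes it back up after release, and D2 autoreceptors (Drd2) on the same neurons restrain further release. Monoamine oxidases (Maoa and Maob) on the outer mitochondrial membrane degrade dopamine to the aldehyde DOPAL. In the midbrain the synthesis and transport genes are hallmarks of DA neurons, whereas the oxidases are also made by glia and other neurons.

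The libraries held 16984336 (labelled Ctrl) and 21326632 (labelled OE) counts. Nr2f2, which encodes COUP-TFII, served to check the labels, and its counts were 637 under the Ctrl label and 377 under the OE label. Its log2 fold change, always taken as OE label over Ctrl label, was -1.07 with a 95% counting interval from -1.26 to -0.88. The overexpressed gene thus goes against the labels, and every direction below is given by the labels alone and cannot be tied to COUP-TFII. The paper reports higher COUP-TFII mRNA in isolated DA neurons of OE mice, whereas these libraries came from whole ventral midbrain tissue. Nr2f2 counts from other cells cannot be separated there, so this check cannot settle whether the labels are right. With 1 library per group there is no replicate and no test between genotypes. All intervals cover counting error only and compare these libraries, not the conditions.

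The start regions of 3 of these genes are shown because they hold the matches to a cyclic AMP response element or a nuclear receptor motif described next. Promoter windows of 300 bases, from 250 before to 50 after the annotated start, were found in RefSeq (GRCm38.p6) for 7 of the 8 genes. Both strands were searched for TGACGTCA (the cyclic AMP response element), AGGTCA (the core motif that COUP-TFII and many other nuclear receptors bind), TAATCC (bound by bicoid-type homeodomain factors such as Pitx3) and TATAAA (the TATA box). In the sequences below capitals mark these matches. Th is shown at chr7:142899946-142900245 (minus strand), Slc18a2 at chr19:59260628-59260927 (plus strand) and the upstream of 2 windows of Ddc at chr11:11898095-11898394 (minus strand).
Th: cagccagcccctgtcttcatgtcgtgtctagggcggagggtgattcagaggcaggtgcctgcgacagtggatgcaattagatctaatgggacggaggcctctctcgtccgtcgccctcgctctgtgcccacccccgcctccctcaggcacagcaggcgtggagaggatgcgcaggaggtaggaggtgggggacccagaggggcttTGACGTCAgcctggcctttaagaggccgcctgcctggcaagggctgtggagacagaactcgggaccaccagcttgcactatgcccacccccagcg
Slc18a2: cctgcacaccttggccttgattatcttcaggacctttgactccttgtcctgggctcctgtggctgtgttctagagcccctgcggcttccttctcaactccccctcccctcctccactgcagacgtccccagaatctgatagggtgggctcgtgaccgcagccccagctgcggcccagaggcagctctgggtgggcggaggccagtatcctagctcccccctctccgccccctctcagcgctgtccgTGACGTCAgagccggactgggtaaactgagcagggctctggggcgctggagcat
Ddc: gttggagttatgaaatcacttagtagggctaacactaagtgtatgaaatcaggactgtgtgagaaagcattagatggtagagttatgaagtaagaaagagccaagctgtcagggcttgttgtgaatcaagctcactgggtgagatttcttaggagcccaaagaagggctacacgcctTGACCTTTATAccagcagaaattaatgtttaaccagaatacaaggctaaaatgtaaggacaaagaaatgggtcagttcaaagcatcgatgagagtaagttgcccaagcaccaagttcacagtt

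TGACGTCA occurred in 2 of the 7 genes, Th and Slc18a2, and in 1.79% of all 32851 windows. It began at position -45 from the start site in Th and at -4 in Slc18a2. AGGTCA occurred in 1 of the 7, Ddc, at -73 on the opposite strand, and in 16.3% of all windows. There it overlaps a TATAAA match, also on the opposite strand, that begins at -68. TATAAA also occurred in Gch1, again on the opposite strand, and in 13.6% of all windows, while TAATCC occurred in none of the 7 genes and in 7.06% of all windows. The windows of Slc6a3, Drd2 and Maoa held none of these letters. The matches describe the reference sequence and were not measured in these mice.

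Of the 8 genes, 6 were more abundant in the library labelled OE, each by more than log2 1, and 0 were lower. The 6 are the DA synthesis genes Th, Ddc and Gch1, the transporters Slc18a2 and Slc6a3, and Drd2. Over all 15246 genes that averaged at least 10 counts, the set used for every background here and called the genes tested, 1.53% were higher by more than log2 1 and 1.28% lower. At log2 0.2, the fold threshold the study used, the same 6 genes were higher, against 17.9% of all genes higher and 16.6% lower. With a counting interval that excluded 0 as a second condition the 6 genes remained, against 9.91% of all genes higher and 9.16% lower at log2 0.2, and 1.27% and 1.13% at log2 1. Maoa and Maob stayed within log2 0.2, as did 65.5% of all genes. The median log2 fold change was 1.24 over the 8 genes and 0.0047 over all genes tested. Together the 6 genes took 0.0809% of counts (95% Clopper-Pearson interval 0.0796 to 0.0823%) under the Ctrl label and 0.209% (0.207 to 0.211%) under the OE label. In such bulk tissue, more DA neurons and more of these transcripts per neuron cannot be told apart. By cell counts rather than RNA, the paper reports comparable DA neuron numbers in younger Ctrl and OE mice. At an older age it reports fewer in OE mice.

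**Figure D1:**
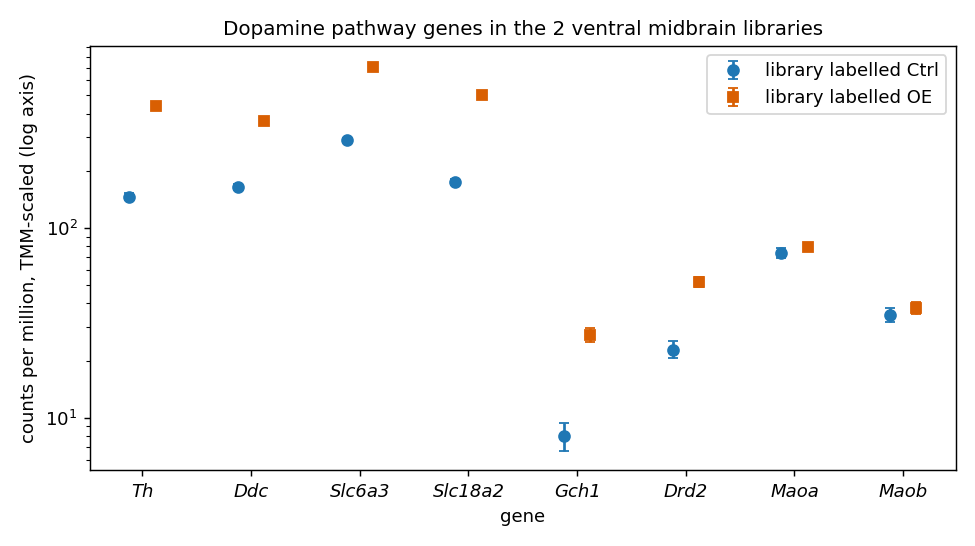
CPM (TMM-scaled counts, log axis) of the 8 genes in the library labelled Ctrl (circles) and in that labelled OE (squares), with 1 library per group. Bars are exact 95% Poisson counting intervals. The points of Th, Ddc, Slc6a3, Slc18a2, Gch1 and Drd2 lie apart, whereas those of Maoa and Maob lie close together.

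Among the synthesis genes, Th (chr7:142892752-142931128 in GRCm38, minus strand, 12 exons in its longest coding transcript) encodes the rate-limiting enzyme of catecholamine synthesis. Th had 2499 counts in the library labelled Ctrl against 9354 in the one labelled OE, or 146 and 441 CPM (counts per 1000000 counts of the library, scaled by TMM). Its log2 fold change was 1.59 (interval 1.53 to 1.66), a ratio of 3.01. Ddc (chr11:11814101-11898144, minus strand, 15 exons) had 2799 and 7790 counts, or 164 and 367 CPM. The Ddc difference was smaller, with a log2 fold change of 1.16 (interval 1.10 to 1.23).

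Gch1 (chr14:47153895-47189413, minus strand, 6 exons) encodes GTP cyclohydrolase 1, the enzyme that commits GTP to tetrahydrobiopterin. Gch1 was the least abundant of the 8 genes, with 136 counts (7.96 CPM) in the library labelled Ctrl against 580 (27.3 CPM) in the one labelled OE. It had the largest log2 fold change of the 8, 1.78, with the widest interval, from 1.51 to 2.06. Only 0.387% of all genes tested had a higher fold change.

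Both transporters were far apart between the libraries. Slc18a2 (chr19:59260896-59296012, plus strand, 16 exons) had 2965 and 10636 counts, or 174 and 501 CPM. Its log2 fold change was 1.53 (interval 1.47 to 1.59). Slc6a3 (chr13:73536747-73578672, plus strand, 15 exons), the gene that also drives Cre in both genotypes, had 4955 and 15033 counts, or 290.2 and 709 CPM. It was the gene with the most counts among the 8 in each library, and its log2 fold change was 1.29 (interval 1.24 to 1.33).

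Drd2 (chr9:49340627-49408177, plus strand, 8 exons), the autoreceptor gene, had 390 counts in the library labelled Ctrl against 1103 in the one labelled OE, or 22.8 and 52.0 CPM. Its log2 fold change of 1.19 (interval 1.02 to 1.36) was close to that of Ddc. Among the 11735 genes that averaged at least 100 counts, Gch1 ranked 10 from the top by fold change, Th 14, Slc18a2 15, Slc6a3 23, Drd2 32 and Ddc 34.

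The oxidases behaved differently. Maoa (chrX:16619698-16687818, plus strand, 15 exons) had 1261 counts (73.9 CPM) in the library labelled Ctrl against 1682 (79.3 CPM) in the one labelled OE. Its log2 fold change was 0.10 (interval -0.0037 to 0.21). Maob (chrX:16709282-16817366, minus strand, 15 exons) lies next to it on the opposite strand and had 595 and 803 counts, or 34.8 and 37.9 CPM. Its log2 fold change was 0.12 (interval -0.035 to 0.27). Neither difference was detectable at this depth, and the intervals leave room for no more than a 1.16-fold higher level of Maoa and a 1.21-fold higher level of Maob.

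**Figure D2:**
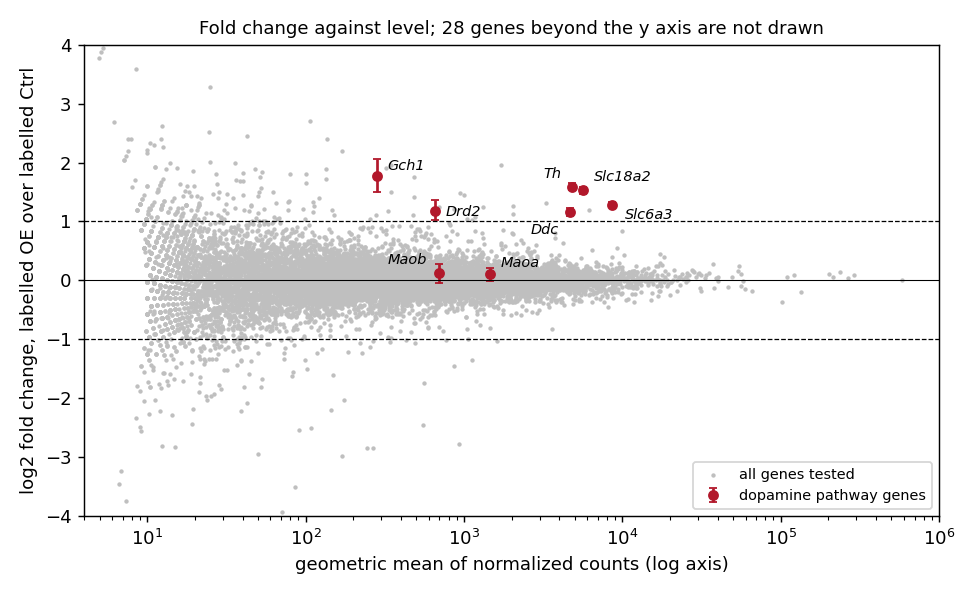
Log2 fold change (OE label over Ctrl label) against the geometric mean of normalized counts (log axis) for all genes tested (grey) and the 8 genes (red, with 95% counting intervals). Dashed lines mark log2 1 in either direction, and 28 genes beyond the vertical axis are not drawn. The 6 synthesis, transport and autoreceptor genes lie above the upper line, and Maoa and Maob lie inside the grey band near 0.

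Ratios between these genes within a library do not depend on how the libraries are scaled. Of the 28 pairs, 22 differed in log2 fold change with a counting interval that excluded 0, and 12 of these set Maoa or Maob against another gene. Th exceeded Slc6a3 by 0.30 (interval 0.22 to 0.38), since there were 0.504 Th counts per Slc6a3 count in the library labelled Ctrl against 0.622 in the one labelled OE. Th exceeded Ddc, the next enzyme of the pathway, by 0.43 (interval 0.34 to 0.52), and the ratio of Th to Ddc counts moved from 0.893 to 1.20. Slc6a3 lay below Slc18a2 by a difference of -0.24 (interval -0.32 to -0.17). The 6 genes that were higher therefore did not differ between the libraries by a single common factor.

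In 6 pairs the interval held 0. Th and Slc18a2 differed by 0.061 (interval -0.026 to 0.15), and Ddc and Drd2 by -0.023 (interval -0.20 to 0.16). Gch1 could not be separated from Th (Th minus Gch1 -0.19, interval -0.48 to 0.092) or from Slc18a2 (Slc18a2 minus Gch1 -0.25, interval -0.54 to 0.029). Slc6a3 minus Drd2 was 0.10 (interval -0.075 to 0.28). Maoa and Maob were nearly parallel, with a difference of -0.017 (interval -0.21 to 0.17) and 2.12 and 2.09 Maoa counts per Maob count in the libraries labelled Ctrl and OE.

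**Figure D3:**
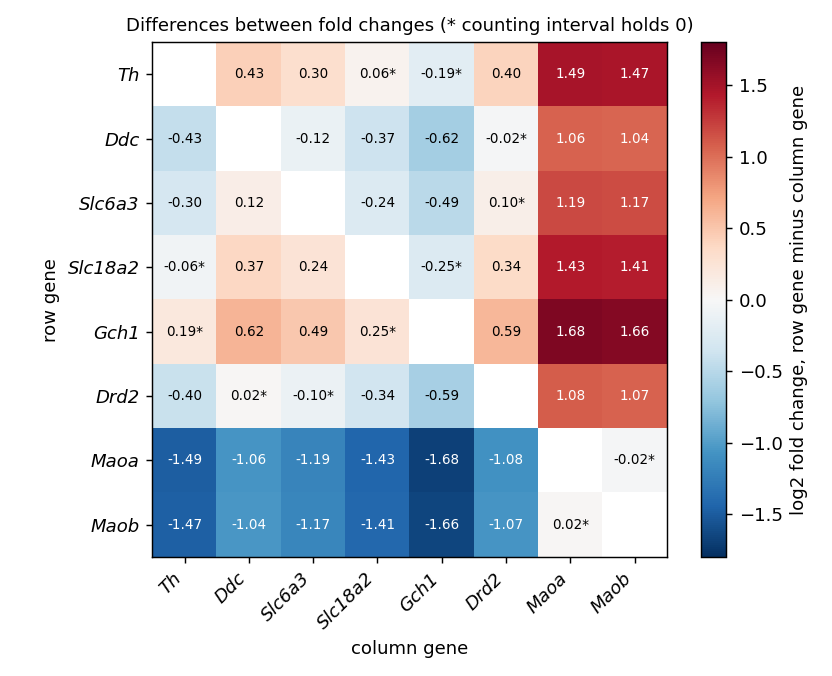
Difference in log2 fold change (OE label over Ctrl label) between each row gene and each column gene, in colour and as printed values. An asterisk marks the 6 pairs whose 95% counting interval holds 0, and the rows of Maoa and Maob are negative against each of the other 6 genes.

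Levels compare between genes only per length, so CPM values were divided by the length of the longest annotated transcript in kilobases. On this scale the levels in the library labelled Ctrl were 84.0 for Slc6a3, 81.2 for Ddc and 75.1 for Th, followed by Slc18a2 at 39.5. Maoa at 17.7, Maob at 14.5, Drd2 at 8.97 and Gch1 at 2.27 came after them. The counting intervals of Slc6a3 and Ddc overlapped, while those of all other neighbours in this order did not. In the library labelled OE the levels were 226 for Th, 205 for Slc6a3, 182 for Ddc and 114 for Slc18a2. Drd2 at 20.4, Maoa at 19.0 and Maob at 15.7 came next, with Gch1 again last at 7.79, and only Drd2 and Maoa overlapped among neighbours. Th thus stood at place 3 under the Ctrl label and at place 1 under the OE label. Drd2 moved from below both oxidases to level with Maoa and above Maob. Using the median transcript length instead put Ddc at place 1 and Th at place 2 in both libraries and left Drd2 below Maob. Of the 13874 genes tested that had a length, 95.7% lay below Th under the Ctrl label and 99.0% under the OE label.

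The tetrahydrobiopterin genes other than Gch1 differed far less than Gch1 did. Of the 7 genes of this list tested, Gch1 included, 4 were higher by more than log2 0.2 and 1 was lower, with a median of 0.22. Qdpr, which regenerates the cofactor, had 7808 and 7568 counts and a log2 fold change of -0.36 (interval -0.40 to -0.31). Pcbd2, a recycling enzyme, had 69 and 102 counts and 0.25 (interval -0.20 to 0.71), which was not detectable at this depth.

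Downstream of the oxidases, 3 of 8 other breakdown enzymes were higher by more than log2 0.2 and 0 lower, with a median of 0.17. Aldh1a1, the cytosolic aldehyde dehydrogenase of DA neurons that oxidizes DOPAL, had 6649 and 14705 counts and a log2 fold change of 0.83 (interval 0.79 to 0.87). This was smaller than that of any of the 6 genes above. The paper reports repression of several aldehyde dehydrogenase genes in ventral midbrain of OE mice, whereas Aldh1a1 was higher under the OE label. The text of the paper does not name those genes. The Aldh1a1 counts were not whole numbers, nor were those of the near-identical paralog Aldh1a7 (66.2 and 272), so the Aldh1a1 value is less certain. Comtd1 had 0.46 (interval 0.14 to 0.80), and Akr1b3, an aldose reductase, 0.28 (interval 0.14 to 0.42).

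Among transporters and enzymes of other monoamines, 5 of the 6 genes tested were higher by more than log2 0.2 and 1 was lower, with a median of 0.96. Most of them had few counts. Slc29a4, a low-affinity monoamine transporter, had 23.2 and 33.1 CPM and a log2 fold change of 0.51 (interval 0.33 to 0.69). Hdc, which makes histamine, had 67 and 187 counts and 1.16 (interval 0.76 to 1.59). The lower gene was Slc22a3, with 39 and 22 counts, named after its values were seen.

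For Drd2, the other dopamine receptors were rare. The row for the D1 receptor (Drd1a) had 60 and 87 counts and a log2 fold change of 0.22 (interval -0.27 to 0.72), and of the 2 receptors tested 1 was higher and 1 lower by more than log2 0.2, with a median of -0.19. The lower one, Drd5, had 49 and 40 counts and was named after its values were seen. Of 14 genes through which the autoreceptor can signal, 3 were higher, 2 were lower and 9 were within log2 0.2, with a median of 0.063. Over all genes tested, 17.9% were higher, 16.6% lower and 65.5% within, close to the shares of this list. The potassium channel subunits moved apart. Kcnj6, the subunit typical of DA neurons, had 197 and 454 counts and 0.89 (interval 0.65 to 1.14). Kcnj9 had 825 and 719 counts and -0.51 (interval -0.66 to -0.37), and Kcnj3 had 358 and 337 counts and -0.40 (interval -0.62 to -0.18).

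Of 10 transcription factors that specify or maintain DA neurons, 8 were higher by more than log2 0.2, 6 of them by more than log2 1, and 0 were lower, with a median of 1.21. The other 2, Otx2 (-0.16) and Sox6 (-0.053), were within log2 0.2 and were named after their values were seen. En1 had 156 and 758 counts and a log2 fold change of 1.96 (interval 1.72 to 2.23). En2, its paralog, had 71 and 405 counts and 2.19 (interval 1.83 to 2.58), and Foxa2 had 67 and 221 and 1.40 (interval 1.01 to 1.83). Nr4a2, an activator of Th and Slc6a3, had 617 and 1329 counts and 0.79 (interval 0.66 to 0.93), and Pitx3 had 16 and 81 counts and 2.00 (interval 1.24 to 2.90).

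Beyond these factors, 15 of 17 DA neuron markers outside the 8 genes were higher by more than log2 0.2 and 0 lower, with a median of 1.20. This list holds Aldh1a1, Kcnj6 and 6 of the factors. Chrna6, a nicotinic receptor subunit, had 781 and 3758 counts and 1.95 (interval 1.84 to 2.07), and Gucy2c had 148 and 691 and 1.91 (interval 1.65 to 2.18). The 8 genes differed in their distance from this marker median. Ddc (-0.041), Drd2 (-0.019) and Slc6a3 (0.083) lay within 0.1 of it. Gch1 (0.57), Th (0.39) and Slc18a2 (0.33) lay above it. Maoa (-1.10) and Maob (-1.09) lay far below it. The markers themselves ranged from -0.053 to 2.00 in log2 fold change, and all 8 genes lay within that range.

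**Figure D4:**
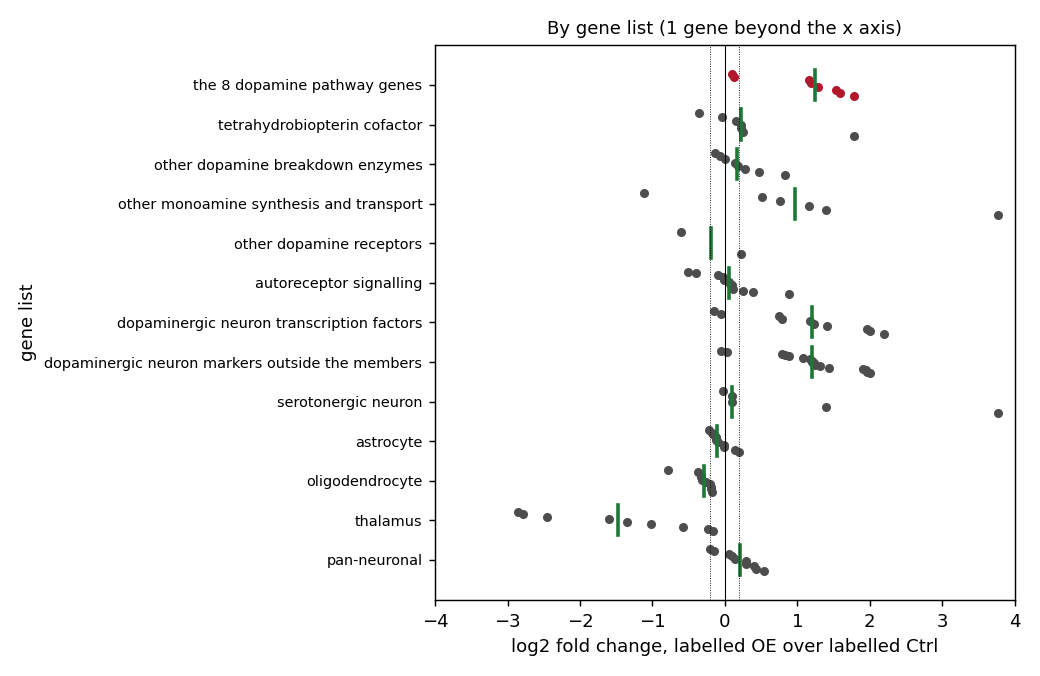
Log2 fold change (OE label over Ctrl label) of each tested gene, by list, with the 8 genes in red and the median of each list as a green bar. Dotted lines mark log2 0.2 in either direction, and 1 thalamus gene lies beyond the axis. The DA neuron lists centre near 1.2, as do the 8 genes, while thalamus markers lie below 0.

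Markers of other cells also differed between the libraries, most of these lists with a median below 0. Their part in the result was not tested. Although the labels name the cell type as dopaminergic neurons, the tissue was mixed, since 10 oligodendrocyte markers summed to 20777 and 17395 CPM and the 17 DA neuron markers to 1100 and 2287 CPM. All 10 tested thalamus markers were below 0, 9 of them by more than log2 0.2, with a median of -1.48 and sums of 1184 and 738 CPM. Tcf7l2 had 2204 and 398 counts, Rgs16 647 and 111, and Prkcd 1156 and 262. The median was -0.29 for oligodendrocyte markers (7 of 10 lower), -0.11 for astrocyte markers (1 of 10 lower), -0.11 for microglia (3 of 8), -0.23 for endothelial and mural cells (5 of 8) and -0.29 for ependyma (2 of 4). For pan-neuronal markers it was 0.21, with 5 of 10 higher and 1 lower by more than log2 0.2. The values of Maoa and Maob lay between the glial and the pan-neuronal medians. Both were within log2 0.2, as were 65.5% of all genes tested.

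Some of the 8 genes are also used by other monoamine neurons. The noradrenergic markers were nearly absent, and Dbh, which converts dopamine to noradrenaline, had 0 counts in both libraries, which allows up to 0.177 and 0.141 CPM. Serotonergic neurons share Ddc, Slc18a2, Gch1 and the oxidases with DA neurons. Of 5 serotonergic markers tested, 2 were higher by more than log2 0.2 and 0 lower, with a median of 0.094. The 2 are Tph2, with 19 and 63 counts, and Slc6a4, with 1 and 24 counts (log2 fold change 3.77, interval 1.66 to 9.63). Both had few counts and were chosen after their values were seen. The other 3 had more counts and stayed within log2 0.2, namely Htr1a (0.094), Gata3 (0.093) and Gata2 (-0.024). The median is thus the value of Htr1a. Whether these 3 are limited to serotonergic neurons in this tissue was not examined. Fev, with 1 and 0 counts, was too rare to be tested. So was Tph1, from the list of other monoamines, with 0 and 9 counts, named after its values were seen. Of 4 histaminergic markers, a list that counts Maob, 1 was higher and 2 were lower, with a median of -0.13. The part of serotonergic neurons in the values of the shared genes was not tested.

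Genes outside all lists with the fold change nearest to Th were Plin4 (502 and 1751 counts, 1.49), Zbtb16 (265 and 884 counts, 1.42) and C1ql2 (235 and 990 counts, 1.76), at a distance of 0.10, 0.17 and 0.17. Nearest to Slc6a3 were Rreb1 (1185 and 3528 counts, 1.26), Tacr3 (407 and 1193 counts, 1.24) and again Zbtb16, at a distance of 0.027, 0.051 and 0.14. They were drawn from 6867 genes that averaged at least 500 counts, and the likeness rests on 2 libraries.

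The nearest tested coding genes on either side of the 8 genes, 14 in all, ranged from -0.45 to 0.29, with a median of -0.0028. Of these, 3 were higher and 4 lower by more than log2 0.2, against 17.9% and 16.6% of all genes. Some lay far away, such as Cask, 2768331 bases from Maoa, and Igf2, 225936 bases from Th. Pdzd8, which lies 1166 bases from Slc18a2, had 1950 and 2485 counts and a log2 fold change of 0.037 (interval -0.049 to 0.12). Lpcat1 and Clptm1l, which flank Slc6a3, had 0.10 and 0.26. For read assignment, no stretch of 50 bases, the read length, in the longest coding transcripts of Th, Ddc, Slc6a3, Gch1, Drd2 or Maob occurs in a transcript of another gene in GENCODE M21. For Slc18a2 the share was 1.39% and for Maoa 3.98%. All 16 deposited values of the 8 genes were whole numbers.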

How the data were processed

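The authors deposited expected counts per gene (RSEM, by the name of the table) without scaling between libraries, made by a sequencing company's pipeline from stranded polyA libraries read from both ends over 50 bp. The labels name mm10 as the build. The RSEM version, the annotation and the strand setting are not given in the sources used here. Of the values, 95.4% are whole numbers. Columns were matched to samples by library number (77 labelled Ctrl, 78 labelled OE).

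Counts were rounded for TMM scaling (edgeR 4.0.16, R 4.3.3). Log2 fold changes were taken after a pseudocount of 0.5 normalized counts, which understates the change of low genes. Intervals of 95% were Clopper-Pearson on the split of 2 counts, conditional exact for pairs of genes, and Poisson for levels (scipy 1.17.1, Python 3.11.15). The 15246 genes averaging at least 10 counts formed the background, and positions and lengths came from GENCODE M21 (GRCm38) by symbol. No test between groups was possible with 1 library each. The intervals were also tested on simulated data, drawn as Poisson counts of 15244 genes of this comparison without variation between mice. There, 90% of intervals excluded 0 on the right side at log2 0.5 and 95.7% held 0 for unchanged genes.

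The 8 genes and all lists were chosen with earlier results of these data known. Named genes are the 8, then from each list the 3 largest absolute fold changes among genes averaging at least 50 counts, Aldh1a1, Nr4a2, Pitx3 and Nr2f2, and the 3 genes outside all lists nearest to Th and to Slc6a3. Exceptions are named in the text, and 1 gene of the rule is not reported here. Neighbours were picked by position after the data were seen. As alternatives, libraries were scaled by DESeq2 size factors (1.42.0), the upper quartile or total counts, and a pseudocount of 5, other count minimums, intervals as a second condition, and other transcript lengths were tried.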

Additional observations from a re-analysis of the deposited data

How the results depend on the processing

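No paired analysis was possible because there was 1 library per genotype, and for the same reason no library could be left out. Under scaling by DESeq2 size factors, the upper quartile or total counts and with a pseudocount of 5, the log2 fold change of Th ranged from 1.58 to 1.59, of Gch1 from 1.75 to 1.78, of Maoa from 0.087 to 0.10 and of Maob from 0.10 to 0.12. The counts of 6 genes higher and 0 lower, at log2 0.2 and at log2 1, did not move under any of these, under other count minimums or with the interval as a second condition. The median of all genes stayed within -0.011 and 0.0049. Nr2f2 stayed between -1.08 and -1.06.

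With the median transcript length, the order of levels in the library labelled OE put Ddc at place 1, Th at 2, Slc6a3 at 3, Maob at 5, Drd2 at 6 and Maoa at 7. The longest protein-coding transcript, added after seeing the data, kept each place. Without a count minimum the median of ependyma markers moved from -0.29 to -0.93, since Tmem212 and Dynlrb2, with few counts, entered. With a minimum of 100 it rested on Foxj1 alone, at 0.063. For genes as rare as Gch1 in the library labelled Ctrl (136 counts), depth sets the width of the interval.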
